A study of Mus musculus with 3 samples.

Results

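The 48 genes described here act in G2 and mitosis, the part of the cell cycle in which a cell that has copied its DNA condenses its chromosomes, attaches them to a spindle and divides. They were taken by gene name (GENCODE M21) from tables of 55536 genes, and all 48 were found. The cells were regulatory T cells, T cells that express the transcription factor Foxp3 and hold immune responses in check. The labels call them inflammation-experienced, and they came from an adult male mouse of 6 months of the strain Foxp3CreERT2 x Rosa26YFP, in which the Foxp3 locus drives a tamoxifen-dependent Cre recombinase and a YFP reporter sits at Rosa26. By the labels, all data are of 1 group and 1 biological replicate, with polyA+ RNA-seq in 3 technical replicates (libraries 1, 2 and 3). No untreated or other control cells are in the group, and the way inflammation was induced is not stated in the labels. The comparison open to these data is therefore between the libraries of 1 sample, and p-values measure the spread between libraries, which may be technical. The labels do not say whether the libraries were divided at the level of cells, of RNA or later, so whether a difference between them can be one of cells is not known.

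Entry into mitosis depends on the kinase CDK1 bound to cyclin A or cyclin B, and exit depends on the anaphase-promoting complex (APC/C), a ubiquitin ligase that marks cyclin B and securin for destruction. In between, the chromosomal passenger complex and the spindle checkpoint watch over the attachment of kinetochores to microtubules, and kinesin motors and the centralspindlin complex organise the spindle and the cleavage of the cell. Most of these genes are transcribed only in late S phase, G2 and mitosis, through promoters bound by the MuvB complex with B-MYB or FOXM1, so in a mixed population their RNA follows the share of cycling cells. Regulatory T cells are known to include a cycling fraction in the living animal.

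Promoters of this class of genes often hold the cell cycle genes homology region (CHR), read by MuvB, and the CCAAT box, read by NF-Y. RefSeq promoter windows of 300 bases on GRCm38.p6, the assembly also called mm10, were searched from 250 bases before to 50 bases after the start of the gene. The CHR was searched as TTTGAA or TTCGAA, the CCAAT box as CCAAT, and an E2F site as TTTCCCGC, TTTCGCGC, TTTGCCGC or TTTGGCGC, each on both strands. Each match was counted once per position, and 1 CHR match in the windows of these genes overlapped a CCAAT match, while none overlapped an E2F match. Windows matched for 40 of the 48 genes, and the other 8 were Aurkb, Stmn1, Spc24, Tpx2, Ccna2, Smc4, Incenp and Kif20a. To let the words be seen, 7 stretches are shown: 4 with both words in the stretch, 2 with CCAAT words alone in the stretch and 1 with neither. They were picked as examples, and their numbers do not give the shares among the 40 genes. Each covers the 120 bases just before the start of the window's gene, 5′ to 3′ on the gene's strand, with CHR and CCAAT words of either strand in capitals (a CCAAT box on the other strand reads ATTGG, and a CHR reads TTCAAA or TTCGAA). Their positions are Top2a chr11:99024190-99024309 (minus strand), Kif11 chr19:37376262-37376381 (plus strand), Hmgb2 chr8:57511723-57511842 (plus strand), Ect2 chr3:27153879-27153998 (minus strand), Ccnb2 chr9:70421555-70421674 (minus strand), Hmmr chr11:40733438-40733557 (minus strand) and Mad2l1 chr6:66535101-66535220 (plus strand).
Top2a: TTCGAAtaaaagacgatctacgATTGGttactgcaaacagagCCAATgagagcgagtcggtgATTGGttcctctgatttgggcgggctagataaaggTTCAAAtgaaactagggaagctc
Kif11: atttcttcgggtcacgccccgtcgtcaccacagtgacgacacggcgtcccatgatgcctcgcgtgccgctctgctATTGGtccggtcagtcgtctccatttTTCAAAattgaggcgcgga
Hmgb2: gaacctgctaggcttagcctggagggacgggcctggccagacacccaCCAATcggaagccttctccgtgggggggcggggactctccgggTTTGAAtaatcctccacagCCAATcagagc
Ect2: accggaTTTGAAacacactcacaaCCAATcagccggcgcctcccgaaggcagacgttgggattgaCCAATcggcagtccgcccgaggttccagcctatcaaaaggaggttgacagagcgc
Ccnb2: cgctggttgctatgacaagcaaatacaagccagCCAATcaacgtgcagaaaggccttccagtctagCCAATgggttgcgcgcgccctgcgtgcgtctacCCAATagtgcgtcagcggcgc
Hmmr: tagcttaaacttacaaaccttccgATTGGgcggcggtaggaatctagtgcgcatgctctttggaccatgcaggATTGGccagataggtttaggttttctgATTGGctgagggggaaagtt
Mad2l1: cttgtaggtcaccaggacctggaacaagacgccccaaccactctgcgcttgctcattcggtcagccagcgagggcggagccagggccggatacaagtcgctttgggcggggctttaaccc
Top2a held 2 CHR and 3 CCAAT words in this stretch, Kif11 1 of each, and Hmgb2 and Ect2 each 1 CHR and 2 CCAAT words. Ect2 has another window, whose stretch (chr3:27153855-27153974, minus strand) held 3 CCAAT words and no CHR word. Ccnb2 and Hmmr held 3 CCAAT words each and no CHR word here, though both have a CHR word elsewhere in the 300-base window. Mad2l1 held neither word in its whole window.

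Over the whole window a CHR word was found in 33 of 40 of the genes (82.5%), in 40 of 89 other genes of the same pathway (44.9%) and in 5854 of all 27025 genes of the promoter table (21.7%). A CCAAT word was found in 32 of 40 (80%), 49 of 89 (55.1%) and 41.1% of all genes. Both words together were found in 29 of 40 (72.5%), 26 of 89 (29.2%) and 8.61% of all genes. An E2F word was found in 4 of 40 (10%), in Cdk1, Cenpm, Ncapd2 and Ncapg, against 15 of 89 (16.9%) and 2.6% of all genes. The 40 genes had 42 windows, since Ect2 and Prc1 had 2 that overlap, and a site in both windows of a gene is counted in each (46 distinct CHR and 78 distinct CCAAT sites). In these windows, of 49 CHR matches, 36 lay from 100 bases before the start onwards and 23 after the start, with a median position of -15. Of 82 CCAAT matches only 4 lay after the start, and the median position was -71. A CHR word was not found in the windows of Birc5, Ccnb1, Cenpe, Cks2, Mad2l1, Nuf2 and Nusap1. A match is a description of the letters and not a bound site.

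**Figure D1:**
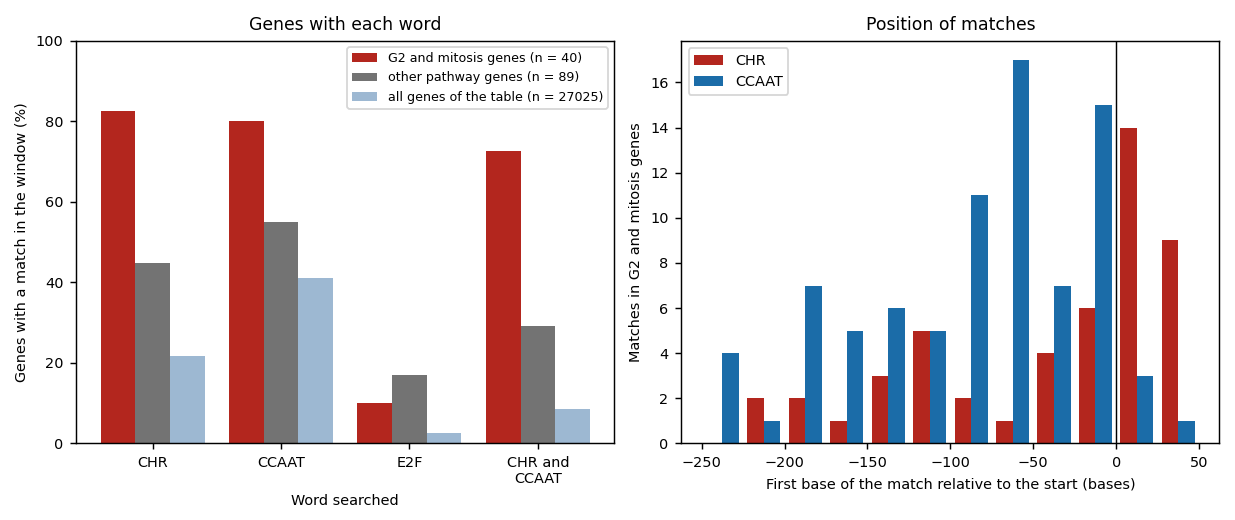
Left, percent of genes with each word in the 300-base promoter window, for the 40 G2 and mitosis genes with a window, 89 other genes of the pathway and all 27025 genes; CHR words were in 82.5%, 44.9% and 21.7% of them. Right, number of CHR and CCAAT matches in the 42 windows of these genes in bins of distance in bases from the start (0); CCAAT matches lie mostly before it, and 23 of 49 CHR matches lie after it.

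The libraries held 11829362, 14136014 and 10667644 estimated gene counts, so a gene at 0 counts could be present at up to 0.254, 0.212 and 0.281 CPM (3 counts; counting error only). T cell markers summed to between 6921 and 7083 TPM (a level per transcript length, scaled to the same total in each library), and Foxp3 stood at 17.96, 14.25 and 16.01 TPM. Markers of other cells were low but unequal: 4 B cell markers summed to 1.64, 21.8 and 23.5 TPM, 4 macrophage markers to 8.89, 52.0 and 22.1, and 3 erythroid markers to 15.2, 18.6 and 54.5. Within the erythroid markers Hba-a1 stood at 1.72, 5.94 and 41.6 TPM, while Klf1 was at 0 in libraries 1 and 2 and at 0.08 in library 3. Tfrc stood at 13.5, 12.6 and 12.8 TPM, and so made up most of the erythroid sum in libraries 1 and 2. Thymocyte markers summed to at most 0.51 TPM, with Rag1 and Rag2 at 0 in all libraries.

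All 48 genes were at 1 TPM or more in every library, and also at 5 TPM or more. Their mean levels ran from 9.35 TPM for Anln to 871 TPM for Hmgb2, with a median of 51.3 TPM, and 12 of them were above 100 TPM. Library 3 held the least of them. The summed level of the 48 genes was 5305, 4941 and 3544 TPM in libraries 1, 2 and 3, and their median level was 60.3, 54.1 and 39.9 TPM. They took 0.730% of gene counts in library 1 (95% Wilson interval 0.726 to 0.735), 0.680% in library 2 (0.675 to 0.684) and 0.486% in library 3 (0.482 to 0.491). The intervals cover counting error only and treat reads as independent. Whether PCR copies of a molecule were counted as separate reads is not stated. In bulk RNA, fewer cycling cells and less of this RNA per cycling cell cannot be told apart.

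Between libraries, each gene was tested by a chi-square test of its estimated counts against Poisson noise, scaled by TMM (a scaling that lines up the bulk of genes between libraries), at a Benjamini-Hochberg adjusted p of 0.05 over 13970 genes. By this test 47 of the 48 genes differed between the libraries, where 45.7% of all tested genes did. All 47 were lowest in library 3, where 19.5% of all tested genes both differed and were lowest in library 3. The exception was Smc4. On scaled counts library 1 was highest for 39 genes and library 2 for 9. In TPM the order was library 1 above library 2 above library 3 for 39 genes, and library 3 was lowest for 47, Smc4 again being the exception.

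The ratio of library 3 to the mean of libraries 1 and 2, on TMM-scaled counts, had a median of -0.66 on the log2 scale over the 48 genes, with an interquartile range from -0.73 to -0.56, while the median over all tested genes was 0.01. Among 6108 tested genes in the same range of mean counts, 57.3% differed by the chi-square test, 48.9% were lowest in library 3, and the median ratio was -0.05. The fold between the highest and the lowest library exceeded 1.5 in 39 of the 48 genes and in 5.08% of those 6108. Those 6108 genes were divided by effective length into 3 groups of 2036, which held 15 (short), 19 (middle) and 14 (long) of the 48 genes. The 48 had median log2 ratios of -0.62, -0.59 and -0.71 in these groups, where all genes of the group had -0.07, -0.07 and -0.02. The summed erythroid, B cell and macrophage marker levels also differed between the libraries. So did 2 CD8 T cell markers (a summed 5.88, 12.4 and 15.2 TPM) and the mitochondrial share of counts (2.38%, 2.51% and 2.68%). The 4 plasma cell markers summed to 40.5, 58.2 and 57.7 TPM, and went different ways. Jchain stood at 0.99, 19.5 and 22.3 TPM and Mzb1 at 0, 2.68 and 4.93 TPM. Xbp1 stood at 38.9, 35.8 and 30.3 TPM. Sdc1 stood at 0.58, 0.24 and 0.11 TPM, on 7, 7 and 2 counts, too few for it to be tested or to show a direction. The part of these differences in the result was not tested.

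**Figure D2:**
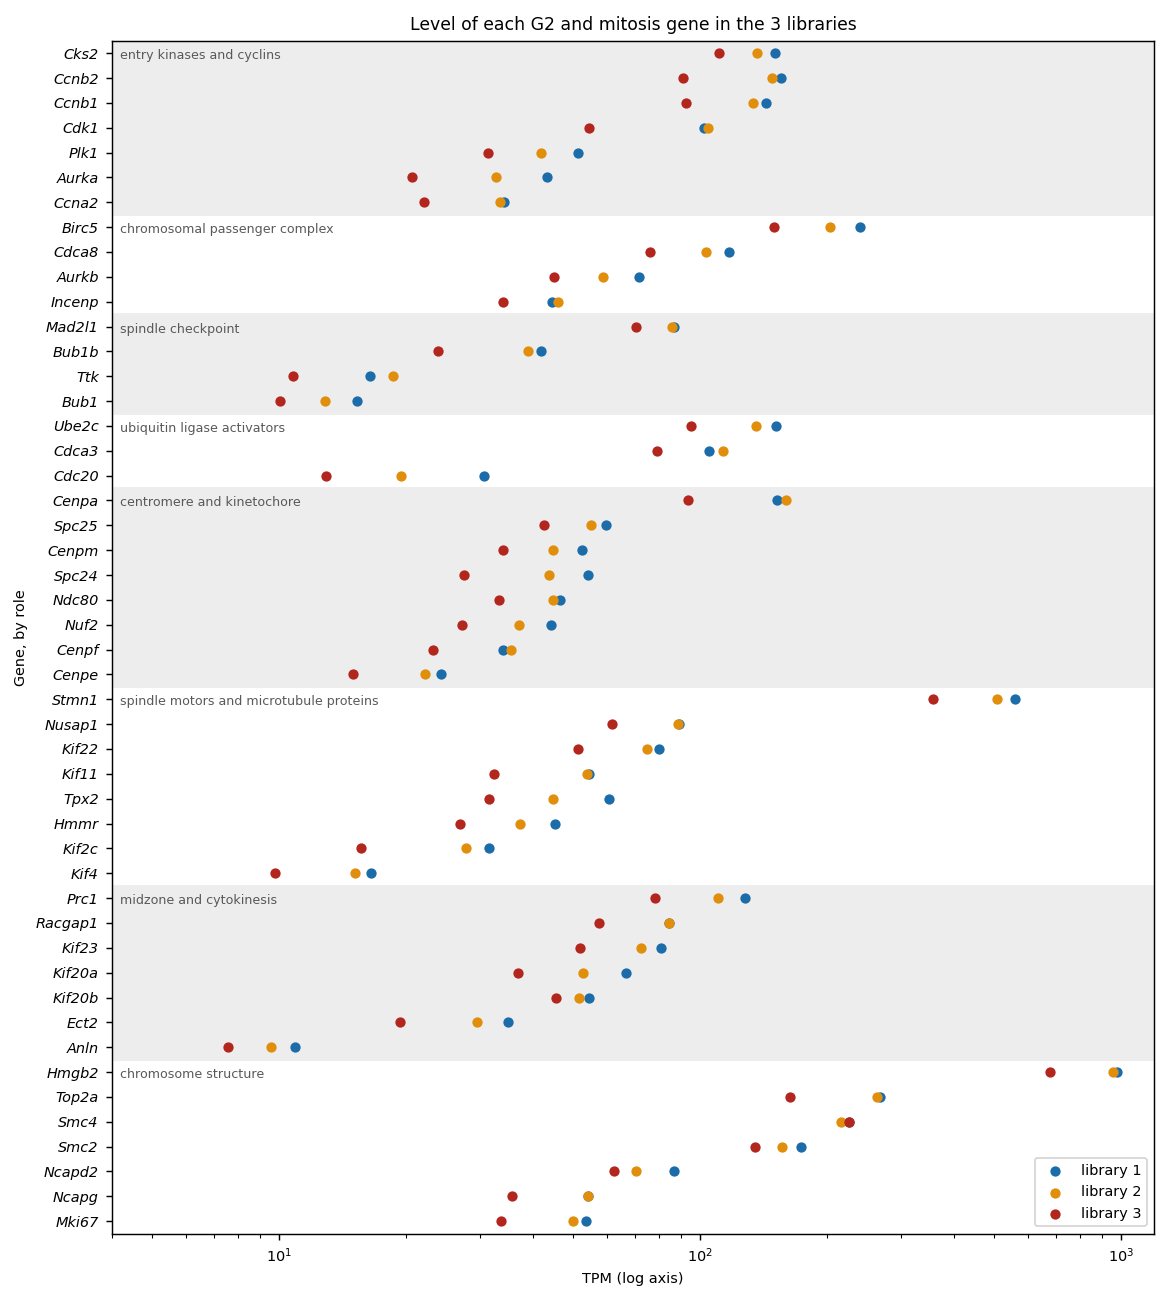
Level of each of the 48 genes (TPM, log axis) in libraries 1, 2 and 3, grouped by role and ordered by mean level within a group. Library 3 is the lowest point for 47 genes, Smc4 being the exception, and libraries 1 and 2 lie close together for most.

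Pairs of libraries showed how much of this rested on library 3. Between libraries 1 and 2 the chi-square test called 14 of the 48 genes (29.2%, against 21.2% of all tested genes), all lower in library 2, with a median log2 difference of -0.09 over the 48. These 14 were Aurka, Cdc20, Plk1, Hmmr, Tpx2, Kif20a, Kif22, Kif23, Ect2, Aurkb, Birc5, Ncapd2, Mki67 and Stmn1. Between libraries 1 and 3 it called 47 genes (30.6% of all tested genes), with a median of -0.70. Between libraries 2 and 3 it called 47 (33.9% of all tested genes), with a median of -0.59. These pairs share libraries and are not independent of each other.

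The Poisson test allows for counting noise alone. With a variance that also held the spread between libraries seen at each gene's abundance (the trended dispersion of edgeR, a coefficient of variation of 16.9% for all genes in common), 7 of the 48 genes were called, against 175 of 13970 tested genes (1.25%). This alternative was chosen after the data were seen, and its spread was estimated from the same libraries with these genes included. The 7 were Hmmr (adjusted p = 0.0103 by this chi-square test), Bub1b (0.0258), Ect2 (0.0269), Kif11 (0.0272), Ccnb2 (0.0358), Aurka (0.0400) and Kif20a (0.0408). Cdk1 (adjusted p = 0.107 by this chi-square test), Cdc20 (0.134) and Top2a (0.0696) were not called, though their Poisson p-values given below are very small. At an unadjusted p under 0.05, the same test held 38 of the 48 genes, against 5.22% of all tested genes.

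The kinases and cyclins that start mitosis were all called and all lowest in library 3, with a median log2 ratio of -0.67 over 7 genes. Cdk1, the kinase that cyclins A and B switch on, stood at 102, 104 and 54.5 TPM in libraries 1, 2 and 3, a fold of 1.75 on scaled counts (adjusted p = 4.76e-28 by the chi-square test). Its mitotic partners Ccnb1 and Ccnb2, the B-type cyclins, stood at 144, 134 and 92.4 TPM and at 156, 148 and 91.1 TPM. Libraries 1 and 2 were close for all 3 of these genes and library 3 was apart. Ccna2, cyclin A, had the lowest mean of the group at 34.2, 33.6 and 22.1 TPM, though Aurka was lower in libraries 2 and 3. Ccnb1 exceeded Ccna2 by 2.04 ± 0.04 on the log2(TPM + 0.1) scale (SD, n = 3 libraries). Cks2, a small subunit that docks CDK1 on its substrates, was among the highest at 150, 137 and 111 TPM and had the smallest fold of the group, 1.38. Plk1, the kinase that drives centrosome maturation and mitotic entry, stood at 51.3, 42.0 and 31.3 TPM. Aurka, the Aurora kinase of the spindle poles, stood at 43.2, 32.8 and 20.7 TPM with a fold of 2.12, and for Plk1 and Aurka the step from library 1 to library 2 also passed the test.

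The chromosomal passenger complex corrects faulty attachments of chromosomes, and its 4 subunits moved by nearly the same amount, with log2 ratios between -0.61 and -0.55. Its most abundant RNA was Birc5 (survivin), at 240, 204 and 150 TPM. Cdca8 (borealin) stood at 117, 103 and 76.1 TPM. The kinase Aurkb followed at 71.5, 58.9 and 44.9 TPM. Incenp, the scaffold of the complex, was lowest at 44.5, 45.9 and 34.1 TPM, and was the only subunit whose TPM was higher in library 2 than in library 1. The ratio of Birc5 to Aurkb was steady across libraries, 1.76 ± 0.03 on the log2(TPM + 0.1) scale (SD, n = 3).

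The spindle checkpoint holds the APC/C back until all kinetochores are attached, and its 4 genes differed more among themselves. Bub1b (BubR1), part of the inhibitor that binds the APC/C, stood at 42.0, 39.0 and 23.9 TPM and had the lowest log2 ratio of the 48 genes, -0.92. Mad2l1 (MAD2), another part of that inhibitor, stood at 86.8, 85.8 and 70.6 TPM with a log2 ratio of -0.34, and so differed least after Smc4. The kinases Ttk (MPS1), at 16.4, 18.6 and 10.8 TPM, and Bub1, at 15.3, 12.9 and 10.04 TPM, were among the least abundant of the 48.

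Of the genes that serve the ubiquitin ligases, Ube2c, the E2 enzyme of the APC/C, was highest at 152, 136 and 95.03 TPM. Cdca3, which acts with the SCF ligase in the turnover of the mitotic inhibitor WEE1, stood at 105, 113 and 79.0 TPM. Cdc20, which activates the APC/C at the start of anaphase, had the largest fold of all 48 genes, 2.14, at 30.7, 19.5 and 12.9 TPM (adjusted p = 5.31e-17 by the chi-square test). Its level fell at both steps, since libraries 1 and 2 also differed by a log2 value of -0.48.

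All 8 centromere and kinetochore genes were called, with log2 ratios between -0.77 and -0.50. Cenpa, the histone H3 variant that marks centromeres, was highest over all transcripts at 152, 160 and 93.6 TPM. Summed over protein-coding transcripts alone, Cenpa stood at 44.8, 49.5 and 23.8 TPM, below Spc25 at 56.6, 50.2 and 32.75 TPM. The NDC80 complex, which grips the microtubule, was represented by all 4 subunits: Spc25 stood at 59.7, 55.0 and 42.7 TPM. Its partner Spc24 stood at 54.2, 43.7 and 27.5 TPM. Ndc80 stood at 46.4, 44.8 and 33.2 TPM and Nuf2 at 44.2, 37.1 and 27.1 TPM. In mean level the 4 subunits thus lay between 36.1 and 52.5 TPM. Cenpm, a member of the constitutive centromere network, stood at 52.6, 44.6 and 34.1 TPM. Cenpf, a large protein of the outer kinetochore, stood at 34.0, 35.5 and 23.3 TPM, and the kinesin Cenpe was lowest at 24.3, 22.2 and 14.99 TPM.

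The 8 spindle motors and microtubule proteins had the lowest group median, a log2 ratio of -0.72, and each differed over 1.5-fold in the estimated counts. In the whole-number counts the fold was 1.34 for Nusap1 and 1.09 for Stmn1, which did not pass there. Stmn1 (stathmin), which destabilises microtubules and is not restricted to mitosis, was far the most abundant at 561, 506 and 357 TPM. Nusap1, which bundles microtubules near chromosomes, stood at 88.9, 88.7 and 61.7 TPM. The chromosome-arm kinesin Kif22 stood at 79.8, 74.9 and 51.3 TPM. Kif11 (Eg5), the motor that pushes the poles apart, stood at 54.5, 54.0 and 32.4 TPM, with libraries 1 and 2 nearly equal. Tpx2, which activates Aurora A on the spindle, stood at 60.9, 44.7 and 31.6 TPM, and Hmmr, a spindle assembly factor, at 45.3, 37.3 and 26.9 TPM with a fold of 2.01. Kif2c, a kinesin that takes microtubules apart at kinetochores, stood at 31.6, 27.8 and 15.7 TPM with a fold of 1.97. Kif4, which shapes chromosomes and the midzone, was lowest at 16.5, 15.1 and 9.76 TPM.

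Genes of the midzone and of cytokinesis spread widely, with log2 ratios from -0.91 to -0.38. Prc1, which crosslinks the midzone microtubules, was highest at 128, 111 and 78.1 TPM. The 2 centralspindlin genes had similar levels, Racgap1 at 84.3, 84.5 and 57.4 TPM and Kif23 at 80.7, 72.4 and 52.0 TPM. Ect2, the exchange factor that centralspindlin brings to the cleavage site, stood at 34.9, 29.6 and 19.3 TPM with a fold of 2.05. Kif20a stood at 66.8, 52.8 and 37.0 TPM with a log2 ratio of -0.75, and its relative Kif20b at 54.6, 51.5 and 45.4 TPM with a ratio of -0.40. In TPM over all transcripts, Kif20a was thus above Kif20b in library 1 and below it in library 3. Summed over protein-coding transcripts alone, Kif20a was above Kif20b in every library. These sums were 62.8, 51.1 and 32.6 TPM for Kif20a and 38.6, 34.6 and 28.8 TPM for Kif20b. Anln (anillin), the scaffold of the contractile ring, was lowest of all 48 at 10.9, 9.58 and 7.56 TPM.

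Among the genes of chromosome structure, Hmgb2, a DNA-bending protein, was the most abundant of the 48 at 976, 958 and 678 TPM. Top2a, the topoisomerase that untangles sister chromatids, followed at 267, 264 and 163 TPM, with 7470, 8709 and 4242 estimated counts (adjusted p = 8.38e-180 by the chi-square test). Mki67, whose protein Ki-67 coats mitotic chromosomes, was lowest of the group per length at 53.7, 49.8 and 33.6 TPM. Condensin, the ring complex that compacts chromosomes, had unequal ratios among its genes. Ncapg stood at 54.2, 54.3 and 35.8 TPM with a log2 ratio of -0.66. Ncapd2 followed at 86.8, 70.6 and 62.5 TPM with a ratio of -0.58, and Smc2 at 173, 157 and 135 TPM with a ratio of -0.48. Smc4 (chr3:69004738-69034623, plus strand), the partner of Smc2 in condensin, stood at 225, 216 and 226 TPM with a ratio of -0.03, and was the only one of the 48 that did not pass the test (adjusted p = 0.262 by the chi-square test). Its 4730, 5377 and 4268 estimated counts gave a fold of 1.04. Scaled by total counts in place of TMM, Smc4 passed, with a ratio of 0.04 and library 2 lowest (adjusted p = 0.0336 by the chi-square test). Over all transcripts, Smc2 was below Smc4 by 0.53 ± 0.19 on the log2(TPM + 0.1) scale (SD, n = 3), with the widest gap, -0.74, in library 3. Summed over protein-coding transcripts alone, Smc2 stood at 65.6, 67.0 and 42.3 TPM and Smc4 at 53.2, 59.6 and 55.5 TPM. By that measure Smc2 was above Smc4 in libraries 1 and 2 and below it in library 3. Most of the Smc4 sum lay in Smc4-206, of 1163 bases, at 45.47, 50.23 and 47.45 TPM. The longest coding transcript of Smc4, Smc4-201 (4316 bases), stood at 7.71, 9.40 and 8.05 TPM. That of Smc2, Smc2-201 (5404 bases), stood at 32.79, 31.68 and 23.87 TPM, and so was above Smc4-201 in every library.

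**Figure D3:**
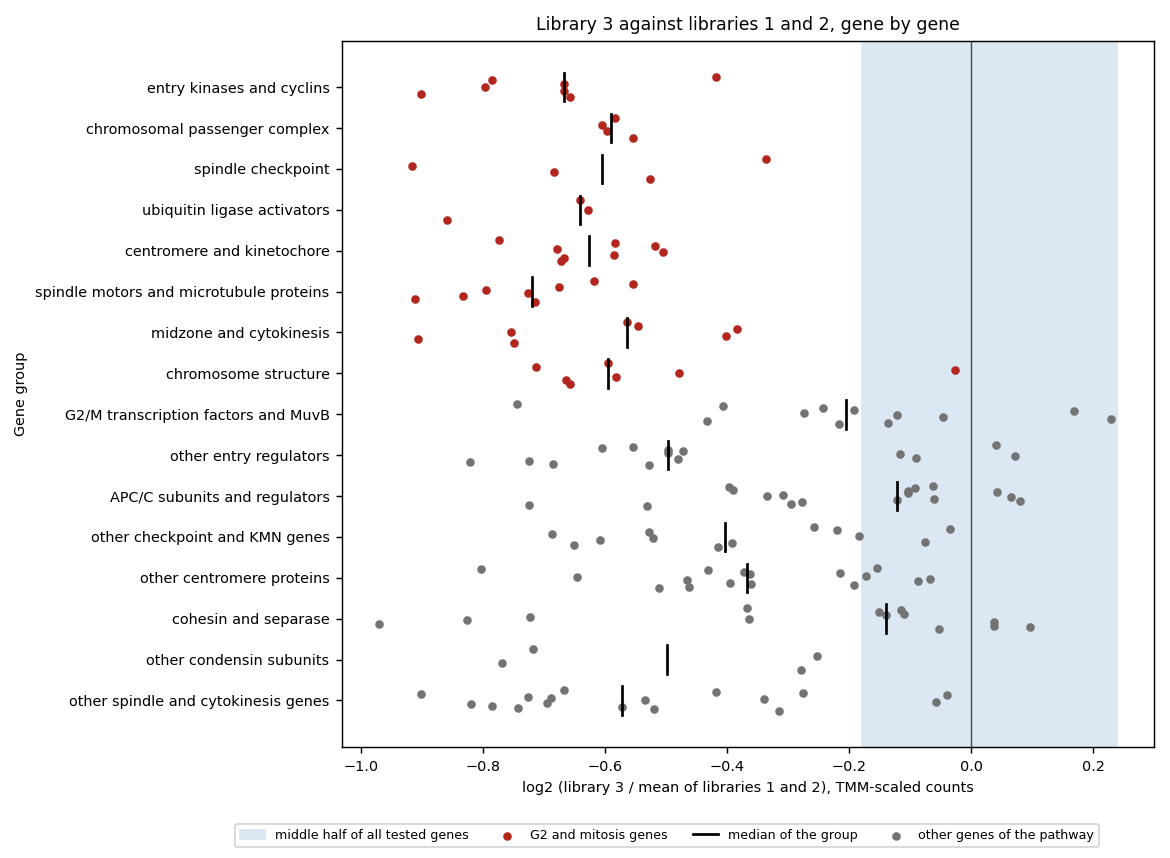
log2 ratio of library 3 to the mean of libraries 1 and 2 on TMM-scaled counts, 1 point per gene, for the 48 G2 and mitosis genes by role and 105 other genes of the pathway by list; short lines are group medians and the band is the interquartile range of all tested genes. Smc4 is the only one of the 48 inside the band, while APC/C, cohesin and transcription factor lists have many points in it.

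The remaining genes of the pathway, 105 in 8 lists, were all at 1 TPM or more and all tested. Of these, 85 differed by the chi-square test, 78 being lowest in library 3, 5 in library 1 and 2 in library 2, and the median log2 ratio was -0.36. Over all tested genes the shares were 45.7% that differed and 19.5% that differed and were lowest in library 3, and 57.3% differed among the 6108 genes in the abundance range of the 48; the counts by list are to be read against these. Of 12 genes for transcription factors and MuvB subunits 9 differed, 7 of them lowest in library 3. Foxm1, the forkhead factor of G2 genes, stood at 8.52, 7.62 and 4.44 TPM. Mybl2, which encodes B-MYB, stood at 12.7, 8.07 and 9.09 TPM. E2f4, a repressive E2F of resting cells, stood at 52.3, 48.7 and 51.5 TPM and did not pass (adjusted p = 0.499 by the chi-square test). The histone chaperone Rbbp4, a MuvB subunit, was the highest of the list at 407, 391 and 379 TPM, and the pocket protein gene Rbl2 (p130) stood at 189, 173 and 165 TPM, while E2f5 was lowest at 1.88, 2.06 and 2.37 TPM.

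Among other spindle and cytokinesis genes 15 of 17 differed, all lowest in library 3, with a median ratio of -0.57: Tacc3 stood at 132, 117 and 86.7 TPM, Ckap5 at 75.8, 65.9 and 58.9 TPM and the kinesin Kif18b at 8.62, 6.49 and 4.07 TPM. All 4 other condensin genes differed and were lowest in library 3, with Ncaph2 at 206, 188 and 170 TPM, Ncaph at 54.0, 49.3 and 31.4 TPM and Ncapd3 at 26.6, 30.6 and 25.5 TPM. Other entry regulators had 11 of 14, all lowest in library 3, with Arpp19 at 378, 372 and 381 TPM, Cks1b at 160, 140 and 111 TPM and the inhibitory kinase Wee1 at 5.01, 3.61 and 3.11 TPM. Arpp19 was lowest in library 3 on scaled counts but not in TPM. The same held for Mybl2, Lin54, Trip13, Zw10, Cenpo, Stag1 and Stag2 among the genes that differed in the other lists. Other centromere proteins had 13 of 16, all lowest in library 3, with the CENP-A chaperone Hjurp at 85.8, 77.4 and 66.5 TPM, Mis18a at 63.9, 64.7 and 58.0 TPM and Oip5 at 12.6, 11.8 and 7.83 TPM. Other checkpoint and kinetochore genes had 11 of 12, 10 of them lowest in library 3, with Bub3 at 205, 193 and 168 TPM, Pmf1 at 93.0, 83.8 and 67.1 TPM and Nsl1 at 8.72, 5.90 and 5.43 TPM.

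The median log2 ratios of the APC/C list and of the cohesin and separase list were -0.12 and -0.14, but both lists were mixed. Ratios in the APC/C list ran from -0.725 (Fbxo5) to 0.08 (Cdc26). In the cohesin and separase list they ran from -0.97 (Cdca5) to 0.10 (Pds5a). Of 17 genes for APC/C subunits and regulators 10 differed, 9 lowest in library 3, a share near the 57.3% called among genes of like abundance and so not a result about this list. Anapc11 stood at 103, 117 and 105 TPM, Anapc13 at 106, 117 and 92.8 TPM and Anapc7 at 12.5, 13.0 and 11.5 TPM. Of 13 cohesin and separase genes 12 differed, 9 lowest in library 3. Pttg1 (securin), the inhibitor of separase, was lowest in library 1 on scaled counts and stood at 132, 143 and 151 TPM. The cohesin subunit Smc1a stood at 106, 87.1 and 79.0 TPM, and Sgo2a, a protector of centromeric cohesin, at 7.45, 7.40 and 6.01 TPM.

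The transcript table gave, for each gene, the part of its TPM assigned to protein-coding transcripts. The median over the 48 genes was 90.7%, with 16 genes above 95% and 15 below 80%. Ccnb2, Mki67, Cks2, Birc5 and Ube2c were at 100%. At the other end, Smc4 had 23.6%, 27.6% and 24.6% in protein-coding transcripts in libraries 1, 2 and 3, and its main transcript was Smc4-207, annotated as a target of nonsense-mediated decay, with 42.8% ± 1.4 of the gene's TPM (SD, n = 3). Cenpa had 29.4%, 30.9% and 25.5%, with 58.3% ± 5.7 in Cenpa-202, also a decay target. Smc2 had 37.9%, 42.7% and 31.3%, with its largest part in short processed transcripts. These were the 3 lowest shares by TPM. By estimated counts the protein-coding share of Smc2 was 78.6%, 81.3% and 74.6%, above that of Mad2l1 at 56.0%, 52.3% and 57.6%.

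The other 12 genes below 80% lay between 52.6% and 77.4% in mean share. Mad2l1 had 52.8%, 49.99% and 55.0% in protein-coding transcripts and 47.5% in retained-intron ones, and Top2a had 52.6%, 51.6% and 53.8%, with 47.5% in processed transcripts. Kif23 had 54.6%, 48.3% and 56.8%, Ncapd2 64.1%, 51.6% and 57.2%, and Cenpf 61.5%, 57.1% and 56.4%. Prc1 had 60.5%, 65.1% and 65.4%, and its main transcript is annotated as a retained intron. In Kif20b the share was 70.8%, 67.2% and 63.3%, in Hmmr 75.9%, 70.5% and 62.6%, and in Tpx2 67.0%, 79.4% and 75.6%. Shares for Bub1b were 74.1%, 79.0% and 70.2%, for Ect2 79.4%, 80.6% and 66.2%, and for Cdca3 76.1%, 75.3% and 80.8%. TPM is per length, so short partial transcripts weigh more here than in counts, and by estimated counts the median share was 94.9%. Summed over protein-coding transcripts alone, 47 of the 48 genes were again lowest in library 3, and Smc4, at 53.2, 59.6 and 55.5 TPM, was lowest in library 1.

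**Figure D4:**
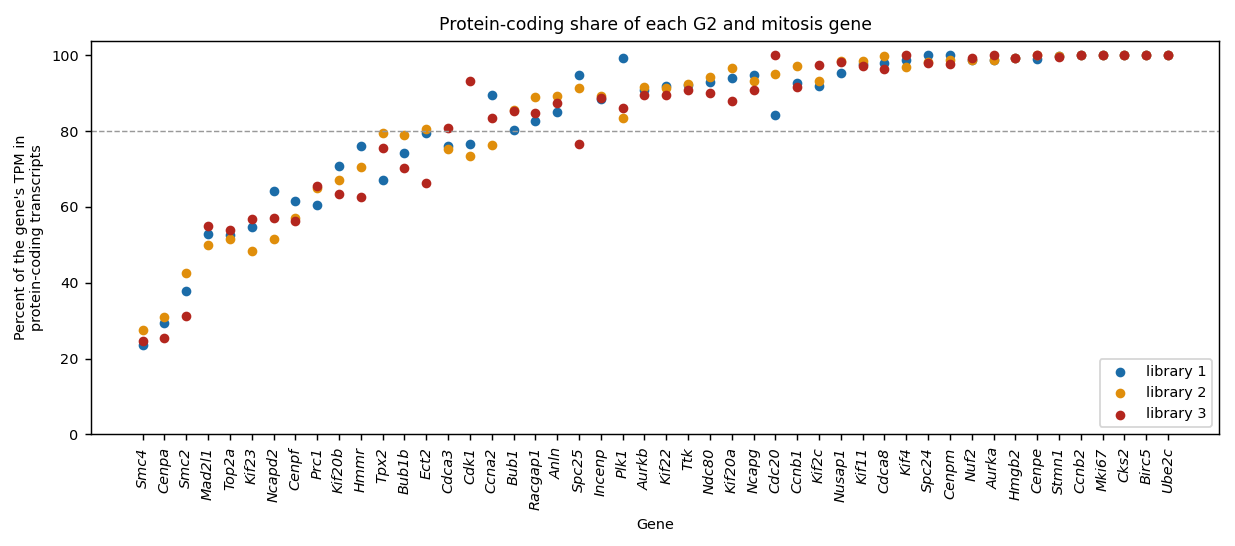
Percent of each gene's TPM in protein-coding transcripts in the 3 libraries, ordered by the mean; the dashed line marks 80%. Smc4, Cenpa and Smc2 lie lowest, and 15 of 48 genes have a mean below the line.

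The other gene table, whole-number counts on an older annotation (GENCODE M4), held all 48 genes. There 42 differed by the chi-square test, against 21.6% of 9991 tested genes, all 42 lowest in library 3, against 9.13% of tested genes that differed and were lowest there. The median log2 ratio was -0.50, closer to 0 than in the estimated counts. Summed over all genes, those absent from it included, this table kept 24.8% of the estimated counts. Gene by gene it kept a median of 57.1% over the 48 genes. A ratio of totals and a median over genes are unlike measures, so these shares are not to be compared. The share was 1.28% for Hmgb2, 2.07% for Stmn1, 2.84% for Cks2 and 8.97% for Ccnb1. Those 4, with Mad2l1 (29.3%) and Smc4 (69.3%), were the 6 that did not pass: their log2 ratios were -0.20 for Hmgb2, -0.06 for Stmn1, 0.06 for Cks2, -0.31 for Ccnb1, -0.12 for Mad2l1 and 0.03 for Smc4. Whether reads shared with near-identical copies of these genes set the low counts was not tested, and levels of Hmgb2, Stmn1, Cks2 and Ccnb1 are uncertain to that extent. The posterior SD of the estimated counts, which reports how uncertain the assignment of reads was, was at most 2.34% of the count (Cks2).

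**Figure D5:**
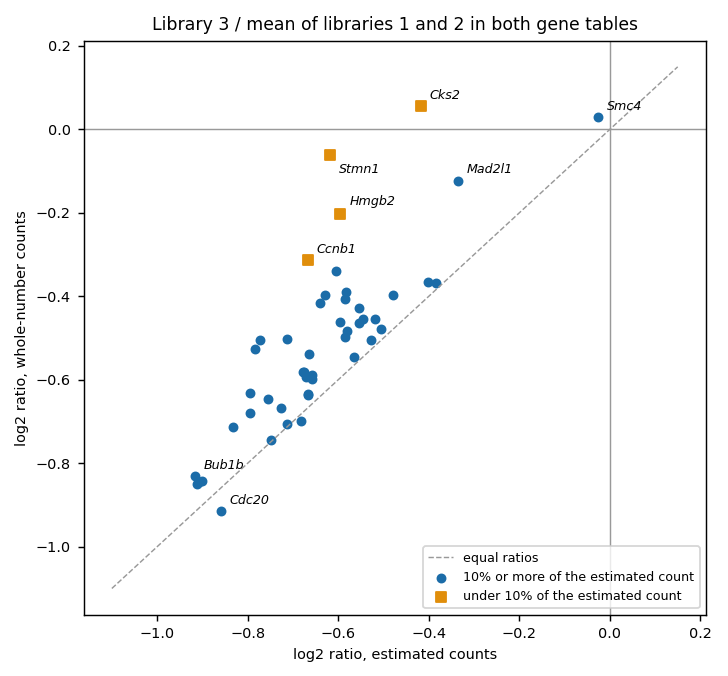
log2 ratio of library 3 to the mean of libraries 1 and 2 for the 48 genes, from estimated counts (x axis) against whole-number counts (y axis); the dashed line marks equal ratios. Squares are the 4 genes that keep under 10% of their estimated count in the whole-number table, and they lie above the line, as do most genes.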

How the data were processed

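PolyA+ RNA-seq of 3 libraries was analysed. Per the file headers, the first gene table holds estimated counts, TPM, FPKM and, as a signal, the posterior SD of the count, in the column layout that RSEM writes, on mm10 and GENCODE M21; the transcript table adds the percent of a gene's TPM in each transcript, as deposited by the authors. Another gene table holds whole-number counts on GENCODE M4, as deposited by the authors. Aligner, versions, strand setting and duplicate handling are not stated in these sources.

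Estimated counts were rounded. Library sizes were scaled by TMM (edgeR 4.0.16, R 4.3.3), with factors 0.994, 0.976 and 1.03, on the 13970 genes whose mean count reached 10. These genes were tested by a Poisson chi-square test (scipy 1.17.1) with Benjamini-Hochberg adjustment. The test was run on simulated counts that held Poisson noise alone. In the real libraries the median chi-square per degree of freedom over all tested genes was 3.28. The simulation therefore cannot show how the test behaves at the spread between these libraries. With 1 group no quasi-likelihood test of edgeR is possible. The test treats reads as independent and says nothing of other animals. Fold is the highest over the lowest library. DESeq2 1.42.0 gave the other size factors. The members and lists were chosen with earlier results of these data known, among them that proliferation genes were lowest in library 3, so this direction is not independent evidence. Values in every library follow a rule: the highest and lowest genes of each role or list, the largest folds, failed tests and coding shares under 80%; the other members were added. A marker gene is not reported here, and marker lists are printed in part.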

Additional observations from a re-analysis of the deposited data

How the results depend on the processing

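With DESeq2 size factors, total counts, no filter on low counts, or the posterior variance added, 47 or 48 of the 48 genes differed. Of all tested genes, in that order of settings, 6384 of 13970, 6443 of 13970, 6928 of 32860 and 5690 of 13970 differed. The median log2 ratio lay between -0.66 and -0.59 under the first 3 of these settings. With trended dispersion, chosen after seeing the data, 7 of the 48 differed, all 7 lowest in library 3, and of the 105 other pathway genes 0 did by the chi-square test (22 at an unadjusted p under 0.05; 85 with Poisson variance). Leaving out 1 library in turn gave 14 to 47 of the 48, the 14 without library 3; 47 and 47 lowest in library 3; medians of -0.70 and -0.59; and 32 to 72 of the 105 other pathway genes, the 32 again without library 3, where 21.2% to 33.9% of all tested genes were called. The whole-number table called 53 of the 105, against 21.6% of all its tested genes. The protein-coding median was 94.9% by transcript counts and 90.4% to 91.5% with 1 library left out. The 48 detected genes stayed at 48 under every limit and left-out library tried. A CHR word was within 100 bases before the start or after it in 31 of 40 genes. A planned search of protein sequences for degradation words was not run. No paired analysis was possible because there is 1 group. Depth limits the genes of lowest count most: the smallest estimated count of the 48 was 187.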
